A study of Mus musculus with 36 samples.

Results

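Immediate early genes are transcribed within minutes of a stimulus, without the need for new protein synthesis, and many of their mRNAs are short-lived. Most of them encode transcription factors. Fos and Fosb pair with JUN proteins to form AP-1, Egr1, Egr2 and Egr3 encode zinc finger factors, and Nr4a1, Nr4a2 and Nr4a3 encode nuclear receptors that act without a known natural ligand. Npas4 encodes a basic helix-loop-helix PAS factor, the protein family that also holds BMAL1 and CLOCK, and it is best known from active neurons, where it dimerizes with ARNT or ARNT2. Ier3 encodes a stress-inducible protein that affects cell survival and is not a transcription factor. These 10 genes were taken by name from the 54532 genes of the count table, and all 10 were found once. In macrophages, genes of this kind respond to bacterial lipopolysaccharide (LPS), usually in a brief burst, which a single late time point cannot follow.

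Bone marrow–derived macrophages (BMDMs) of C57BL/6 mice were grown for 7 days with MCSF. Control cells carried the floxed allele of Bmal1 without Cre (Bmal1 flox/flox, called WT, n = 3), and knockout cells carried LysM-Cre and the same floxed allele (LysM-Cre;Bmal1 flox/flox, called KO, n = 6), so both genotypes were homozygous for the floxed allele. Cells of each genotype were treated for 6 h with vehicle (DMSO), with 100 µM Core Circadian Modulator (CCM), a small molecule made to bind the PASB domain of BMAL1, with 100 nM LPS, or with LPS and CCM, which gave 8 groups and 36 libraries of adult female mice. The LysM promoter drives Cre in myeloid cells, so the deletion is limited to that lineage. Nothing in the labels says that each replicate number is a separate mouse, so p-values measure the spread between these samples.

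The libraries held 13469262 to 28288923 read pairs assigned to genes (median 19951421). The gene of BMAL1, Arntl, had 7.52 to 12.9 CPM in WT and 2.02 to 10.8 CPM in KO libraries. CPM are counts per 1000000, with library totals adjusted by TMM factors, as for all levels here. The 4 libraries of KO replicate 6 had 2.02 to 4.80 CPM of Arntl and the other KO libraries 4.52 to 10.8 CPM. A count over the whole gene also takes in exons outside the deleted part. The macrophage markers Adgre1 and Csf1r were present in all 36 libraries. The 4 libraries of KO replicate 6 stood apart: their median correlation with the libraries of their own group was 0.861 to 0.915, where the other KO libraries had at least 0.956. In these 4 libraries the summed level of 6 macrophage markers was 2909 to 4318 CPM, against 3940 to 6103 CPM in the other KO libraries. Single macrophage markers differed in direction: Adgre1 was 259 to 934 CPM in KO replicate 6 and 678 to 2511 CPM in the other 32 libraries, whereas Cd68 was 1013 to 1427 CPM and 587 to 1248 CPM, and Fcgr1 127 to 779 CPM and 71.7 to 636 CPM. The summed level of 6 markers of neutrophils and their precursors was 849 to 878 CPM in KO replicate 6 and 254 to 737 CPM in the other KO libraries, with the defining marker Ly6g at no more than 0.562 CPM in any library. Summed T cell markers were 1.07 to 3.13 CPM in KO replicate 6 and at most 0.758 CPM in the other KO libraries, B cell markers 4.55 to 9.76 CPM and at most 4.60 CPM, and erythroid markers 4.21 to 10.4 CPM and at most 6.49 CPM. Those of dendritic cells (1.32 to 6.07 CPM) and fibroblasts (310.1 to 595.6 CPM) overlapped the other KO libraries, where fibroblast markers reached 1648 CPM. KO results are therefore given with and without replicate 6, and the part of other cells in them was not tested. KO LPS+CCM replicate 5 had the lowest correlation of the other KO libraries (0.956) and stayed in the fits without replicate 6. Its macrophage markers summed to 4301 CPM, where replicates 1 to 4 of its group had 5296 to 6103 CPM. Its neutrophil and precursor markers summed to 653 CPM, where those replicates had 287 to 486 CPM. In bulk RNA, fewer expressing cells and less RNA per cell cannot be told apart.

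The upstream sequences of 4 genes are shown because these genes mark the opposite responses described below: Npas4 and Fos fell with LPS, whereas Nr4a3 and Ier3 rose. They are the RefSeq sequences on build GRCm38.p6, 5′ to 3′ on the strand of the gene, and end just before the start of the gene. Capitals mark TGACG, or CGTCA where it lies on the other strand, which is the core of the cAMP response element bound by CREB factors.
Npas4, chr19:4989972-4990221, minus strand: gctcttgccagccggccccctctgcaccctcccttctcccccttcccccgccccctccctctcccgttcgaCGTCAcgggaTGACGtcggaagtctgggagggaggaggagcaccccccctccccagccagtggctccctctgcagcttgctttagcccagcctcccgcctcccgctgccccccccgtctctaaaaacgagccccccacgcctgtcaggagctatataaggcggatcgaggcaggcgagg
Fos, chr12:85473640-85473889, plus strand: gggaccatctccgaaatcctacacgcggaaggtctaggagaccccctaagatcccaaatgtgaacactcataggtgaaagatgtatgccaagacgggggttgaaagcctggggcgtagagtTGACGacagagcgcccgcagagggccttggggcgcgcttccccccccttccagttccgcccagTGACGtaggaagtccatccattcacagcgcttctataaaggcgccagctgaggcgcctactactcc
Nr4a3, chr4:48045055-48045152, plus strand: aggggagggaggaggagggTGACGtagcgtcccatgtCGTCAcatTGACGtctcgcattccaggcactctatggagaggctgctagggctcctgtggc
Ier3, chr17:35821463-35821683, plus strand: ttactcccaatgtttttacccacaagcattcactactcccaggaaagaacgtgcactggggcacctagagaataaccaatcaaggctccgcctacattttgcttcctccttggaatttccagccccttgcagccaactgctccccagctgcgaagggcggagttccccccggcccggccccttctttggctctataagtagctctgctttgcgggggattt
The stretches of Npas4 and of Fos each held TGACG 2 times and that of Nr4a3 held it 3 times, so the motif stood before genes that moved in opposite directions, while the stretch of Ier3 held none. RefSeq sequences of 8 of the 10 genes were searched. Egr1 and Egr3 were not searched, so the counts that follow say nothing about them. In the 250 bases before a RefSeq start, TGACG on either strand was found for 7 of these 8 genes (Npas4, Fos, Fosb, Egr2, Nr4a1, Nr4a2 and Nr4a3) and for 19.8% of the 27025 genes with such a sequence. The E-box CACGTG, the sequence that BMAL1 and CLOCK bind, was found for 1 of the 8 (Egr2, at 1 of its starts) and for 6.86% of all genes. The CArG box, bound by serum response factor, was found in these windows for Egr2 alone among the 8 genes and for 1.62% of all genes. A match of letters is not a bound site, and its absence says nothing beyond this window.

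The genes differed widely in level before any treatment. Scaled by gene length, WT macrophages with vehicle had 91.2 CPM per kb of Fos, 30.05 of Ier3 and 17.3 of Egr2, whereas Npas4 had 1.54, Fosb 0.233 and Nr4a3 0.0864 CPM per kb. With LPS the order turned, with Ier3 at 132 CPM per kb above Fos at 24.4, and Nr4a3 at 1.23 above Npas4 at 0.285. All further levels are CPM without division by length. Npas4 rested on few reads, with 104 to 166 counts per library in WT vehicle and 3 to 6 counts in WT LPS+CCM libraries.

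**Figure D1:**
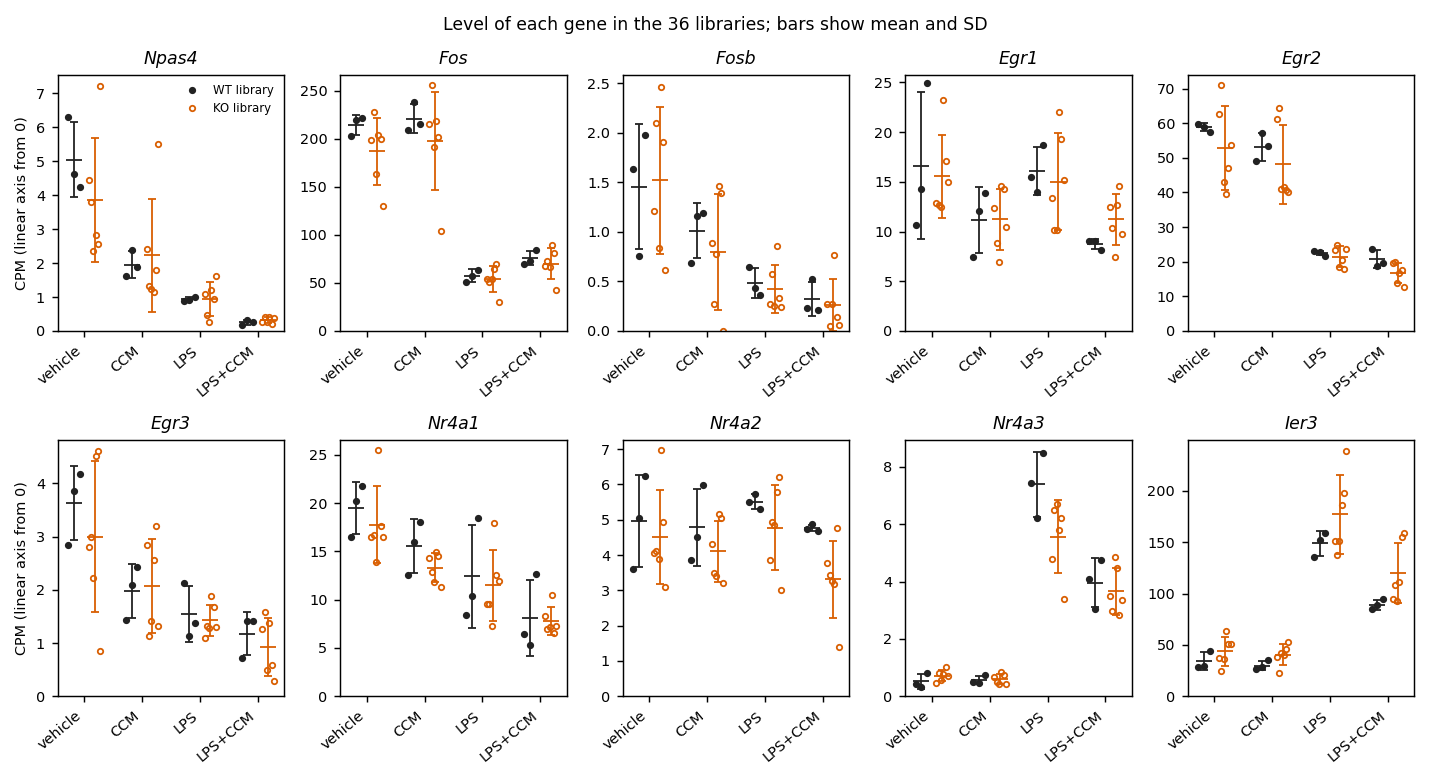
Level of each of the 10 genes (CPM, linear axis from 0) in every library, by treatment, with WT as filled black and KO as open orange points, and bars at the mean with the SD. Npas4, Fos, Fosb, Egr2 and Egr3 had lower means with LPS than with vehicle, Nr4a3 and Ier3 higher ones, and the KO points lay around the WT points in each treatment.

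The comparison of LPS with vehicle asks how the genes stood after 6 h of the stimulus alone, and earlier times were not sampled. In WT macrophages 2 of the 10 genes were called higher (Nr4a3 and Ier3) and 5 lower (Npas4, Fos, Fosb, Egr2 and Egr3), called meaning an adjusted p of at most 0.05 by edgeR's quasi-likelihood test. Over all 14501 genes tested, 63% were called, 30.6% higher and 32.4% lower, so the share of the 10 genes called was close to that of all genes. The median log2 fold change was -0.92 over the 10 genes and -0.05 over all genes. The ranges of the WT groups did not overlap for 7 genes, the same 7 that were called, where 31.7% of all genes had ranges apart and higher and 37.3% ranges apart and lower. Scaling by total counts alone would move the median of all genes to -0.47 in WT and from -0.05 to -0.44 in KO, and the direction of each called gene was the same under it. Marker sums moved with LPS too. In WT those of macrophages were 4119 to 4548 CPM with vehicle and 5357 to 5525 CPM with LPS, those of dendritic cells 1.73 to 3.20 and 3.54 to 3.996 CPM, those of neutrophils and their precursors 400.2 to 445.7 and 351.6 to 384.7 CPM, and those of B cells 3.39 to 4.33 and 2.04 to 3.07 CPM, while the other 3 of the 7 lists overlapped. In KO all 7 lists overlapped in each comparison of treatments. Without replicate 6, KO macrophage markers were apart, at 4050.5 to 4586 CPM with vehicle and 5401 to 5864 CPM with LPS. B cell markers were then also apart from vehicle (3.70 to 4.60 CPM) with LPS (1.27 to 3.24 CPM) and with CCM (2.14 to 3.41 CPM). The part of these markers in the results was not tested.

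Npas4 (ENSMUSG00000045903, chromosome 19, 4984355 to 4989971) measured 6.30, 4.61 and 4.24 CPM in the WT vehicle libraries and 0.886, 0.912 and 1.01 CPM in the WT LPS libraries. All 3 LPS libraries lay below all vehicle libraries, a 5.40-fold lower mean (5.05 ± 1.10 against 0.935 ± 0.0632 CPM, SD, n = 3). Its log2 fold change came to -2.39 (standard error, SE, 0.233, edgeR adjusted p = 9.6e-06). In KO the vehicle libraries ran from 2.36 through a median of 3.31 to 7.21 CPM and the LPS libraries from 0.255 through 1.03 to 1.62 CPM, without overlap. The log2 fold change in KO was -2.04 (SE 0.426, edgeR adjusted p = 0.00134), and -1.99 (SE 0.334, adjusted p = 0.00013) without replicate 6. In KO the gene passed the filter on low counts through the vehicle libraries, since only 4 of the 6 LPS libraries reached the minimum.

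Fos (ENSMUSG00000021250, chromosome 12, 85473890 to 85477273) encodes the AP-1 subunit most used as a marker of recent stimulation. It measured 202, 219 and 222 CPM in WT vehicle and 50.6, 57.6 and 63.9 CPM in WT LPS libraries, so the stimulated cells had less Fos than resting cells, with ranges far apart. Its log2 fold change came to -1.87 (SE 0.0890, edgeR adjusted p = 4e-08) in WT and -1.79 (SE 0.177, adjusted p = 2.1e-06) in KO. Fosb (ENSMUSG00000003545, chromosome 7, 19302696 to 19310051) fell in the same comparisons, by 1.61 on the log2 scale in WT (edgeR adjusted p = 0.00785) and by 1.83 in KO (adjusted p = 0.00209). It was low throughout, at 1.46 ± 0.633 CPM with vehicle and 0.482 ± 0.150 CPM with LPS in WT (SD, n = 3), and it passed the filter through the vehicle libraries. One KO CCM library held 0 counts of it, which allows up to 3.

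Among the EGR genes, Egr2 (ENSMUSG00000037868, chromosome 10, 67535475 to 67542188), which also takes part in macrophage differentiation, had the tightest values. It measured 59.8, 59.0 and 57.5 CPM in WT vehicle and 23.0, 22.8 and 21.7 CPM in WT LPS libraries, and it fell by 1.36 on the log2 scale (SE 0.0614, edgeR adjusted p = 2.7e-08). In KO it fell by 1.29 (SE 0.165, edgeR adjusted p = 2.3e-05). Egr3 (ENSMUSG00000033730, chromosome 14, 70077203 to 70082614) fell by 1.23 in WT (edgeR adjusted p = 0.00348) and by 1.06 in KO (adjusted p = 0.0149). The Egr3 call in KO was lost when replicate 1, 2 or 5 was left out (adjusted p up to 0.0549) and was kept without replicate 6 (adjusted p = 0.00039). Egr1 (ENSMUSG00000038418, chromosome 18, 34859823 to 34864984), the family member best known from growth factor signalling, was not called, with 16.6 ± 7.40 CPM in WT vehicle and 16.1 ± 2.42 CPM in WT LPS libraries (SD, n = 3) and log2 fold changes of -0.03 in WT and -0.04 in KO. The sign of the Egr1 value in WT changed with the scaling, to 0.01 with RLE size factors.

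The 3 nuclear receptor genes of the NR4A family moved apart. Nr4a3 (ENSMUSG00000028341, chromosome 4, 48045153 to 48086447) measured 0.418, 0.310 and 0.824 CPM in WT vehicle and 7.44, 6.21 and 8.49 CPM in WT LPS libraries, with no overlap and a 14.3-fold higher mean with LPS. In WT it passed the filter on low counts through the LPS libraries, since 2 of the 3 vehicle libraries reached the minimum. Its log2 fold change came to 3.79 (SE 0.311, edgeR adjusted p = 2.6e-06) in WT and 2.95 (SE 0.222, adjusted p = 1.5e-07) in KO, where vehicle ran from 0.461 through 0.733 to 1.02 CPM and LPS from 3.40 through 6.00 to 6.71 CPM. Nr4a1 (ENSMUSG00000023034, chromosome 15, 101254269 to 101274795) had a log2 fold change of -0.61 in WT that missed the threshold (edgeR adjusted p = 0.0541), with 8.45, 10.4 and 18.5 CPM in the WT LPS libraries against 16.5 to 21.8 CPM with vehicle. Nr4a1 was called lower in WT by DESeq2 (adjusted p = 0.0242), by edgeR with no filter (adjusted p = 5.8e-07) or with total counts (log2 change -1.02, adjusted p = 0.0040), and without WT vehicle replicate 1 or WT LPS replicate 3, its highest LPS library (log2 change -1.01, adjusted p = 0.00075). It was not called with RLE size factors or in the fit on all 36 libraries (adjusted p = 0.0909). In KO it fell by 0.62 (edgeR adjusted p = 0.0266), a call lost without replicate 1, 2 or 5 (adjusted p up to 0.0816). Nr4a2 (ENSMUSG00000026826, chromosome 2, 57106830 to 57124003) was not called, with log2 fold changes of 0.17 in WT and 0.08 in KO that became -0.24 and -0.30 when libraries were scaled by total counts.

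Ier3 (ENSMUSG00000003541, chromosome 17, 35821684 to 35822923) measured 28.8, 29.2 and 44.0 CPM in WT vehicle and 136, 152 and 160 CPM in WT LPS libraries. Every LPS library lay above every vehicle library in WT and in KO, where vehicle ran from 24.3 through 43.9 to 63.8 CPM and LPS from 137 through 169 to 239 CPM. Its log2 fold change came to 2.16 (SE 0.155, edgeR adjusted p = 9.6e-07) in WT and 2.02 (SE 0.233, adjusted p = 8.6e-06) in KO. In KO, 8 of the 10 genes were called, 2 higher and 6 lower, where 47.1% of 13648 genes were called (22.4% higher and 24.7% lower), and 5 had ranges that did not overlap, where 15.3% of all genes lay apart and higher and 15.2% apart and lower. The same number, 8, was called without replicate 6 (69.4% of all genes) and with a block on replicate number (71.6% of all genes).

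Of 27 other immediate early genes, 26 were tested for LPS in WT, and 12 were called higher and 8 lower, with a median log2 fold change of 0.12. Among those higher were Gadd45b, a stress sensor (30.9 ± 7.37 to 166 ± 5.96 CPM, SD, n = 3), Dusp2, a MAP kinase phosphatase (6.26 ± 0.733 to 34.8 ± 7.01 CPM), and the AP-1 subunit Junb (189 ± 11.7 to 485 ± 71.7 CPM). Among those lower were the AP-1 subunit Jun (188 ± 22.8 to 57.7 ± 3.52 CPM), the transcription factor gene Myc (33.1 ± 2.05 to 11.4 ± 1.57 CPM) and the repressor Klf10 (52.8 ± 5.83 to 14.2 ± 3.65 CPM). Fos and Jun, the classic AP-1 pair, were thus both called lower while Junb was called higher. In KO the counts were 9 higher, led by Maff, Dusp2 and Gadd45b, and 6 lower, led by Jun, Klf10 and Myc, or 11 and 10 without replicate 6. Of 16 upstream and partner factors, 7 were called higher and 4 lower in WT, and 4 and 3 in KO. Arnt2, a partner of NPAS4, rose from 0.438 ± 0.0888 to 5.97 ± 0.713 CPM in WT (SD, n = 3; log2 fold change 3.78, edgeR adjusted p = 3.4e-07) while Npas4 fell. Nab1, which encodes a corepressor of EGR proteins, rose from 71.0 ± 3.18 to 155 ± 2.66 CPM, and the CREB coactivator gene Crtc2 from 47.3 ± 2.57 to 78.5 ± 0.760 CPM. Rxra, whose product pairs with NR4A receptors, fell from 177 ± 16.0 to 72.0 ± 3.58 CPM, and the SRF coactivator genes Mkl1 and Mkl2 fell by 0.69 and 0.70 on the log2 scale. In KO, Crtc2, Arnt2 and Srf were higher and Rxra, Mkl1 and Mkl2 lower.

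**Figure D2:**
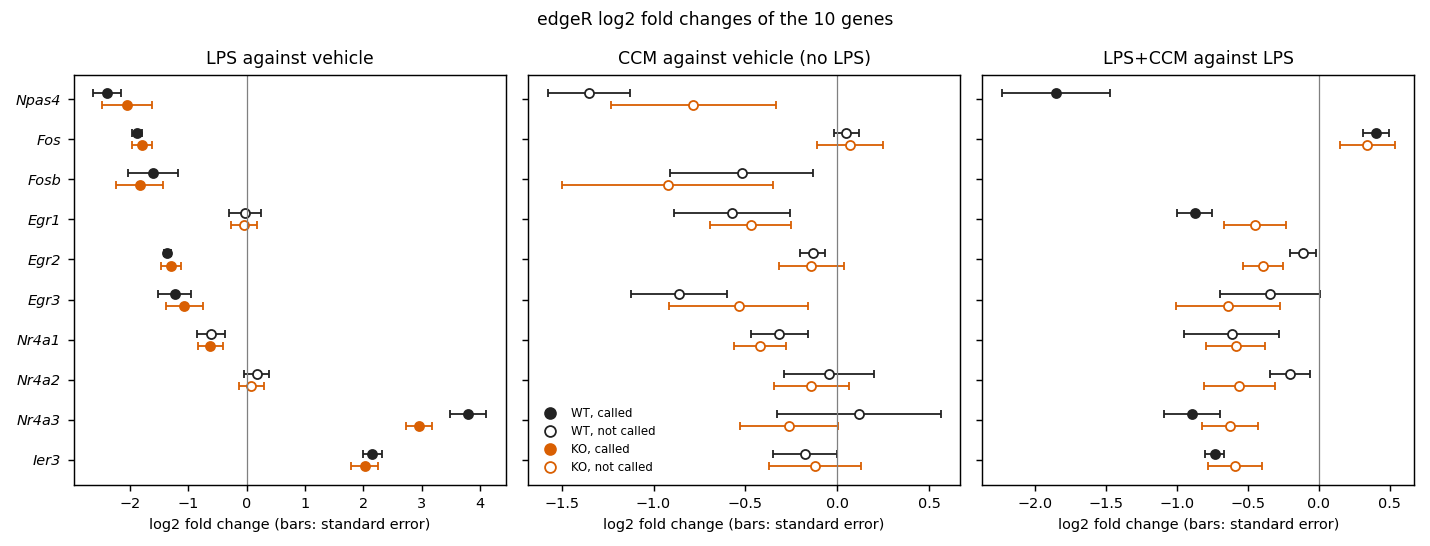
Fold changes of the 10 genes (edgeR, log2, with standard errors) for LPS against vehicle, CCM against vehicle and LPS+CCM against LPS, in WT (black) and KO (orange), filled where the adjusted p was at most 0.05. WT and KO points lie on the same side of 0 for each gene with LPS, no point is filled for CCM alone, and 5 WT points are filled for CCM under LPS, of which 1, Fos, is higher.

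Without LPS, few genes of WT macrophages were called for CCM against vehicle, and 0 of the 10 genes were among them (0.057% of 14024 genes were called, 0.0499% higher and 0.00713% lower). At an unadjusted p under 0.05 there were 2 of the 10 genes, Npas4 and Egr3, and 1404 of all genes tested. DESeq2 called 1 of the 10, Npas4 (adjusted p = 0.00038). Npas4 had 1.61, 2.38 and 1.89 CPM with CCM, all below the 3 vehicle libraries given above, a mean of 38.7% of vehicle (log2 change -1.35, SE 0.224, edgeR adjusted p = 0.0856). Its adjusted p over the alternatives ran from 9.8e-05 with no filter to 1 with all 36 libraries in 1 fit. Egr3 had 1.43, 2.10 and 2.42 CPM with CCM against 2.85, 3.86 and 4.18 CPM with vehicle, also without overlap (log2 change -0.86, SE 0.260, edgeR adjusted p = 0.301). Egr2 was the third gene with separate ranges, at 53.2 ± 4.07 against 58.8 ± 1.15 CPM (SD, n = 3), and 8.26% of all genes lay apart and lower and 7.11% apart and higher. Fos, the most abundant member, measured 221 ± 15.1 CPM with CCM and 215 ± 10.5 CPM with vehicle (SD, n = 3; log2 fold change 0.05, SE 0.0693), and Nr4a3 was 0.570 ± 0.147 against 0.517 ± 0.271 CPM. The summed level of 3 dendritic cell markers was 0.943 to 1.26 CPM with CCM and 1.73 to 3.20 CPM with vehicle in WT, without overlap, whereas the other 6 marker lists overlapped, and its part in the result was not tested. The log2 fold changes of the other genes were -0.57 for Egr1, -0.52 for Fosb, -0.32 for Nr4a1, -0.18 for Ier3 and -0.04 for Nr4a2. Of the other immediate early genes 0 of 26 tested were called in WT and 0 of 26 in KO, and of the upstream and partner factors 0 of 15 in each.

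In KO macrophages without LPS, 0 of the 10 genes were called by edgeR and 0 by DESeq2 (0% of 13799 genes), and 1, Nr4a1, had an unadjusted p under 0.05. Npas4 ran from 1.15 through 1.56 to 5.50 CPM with CCM and overlapped vehicle, as did the other 9 genes (0.203% of all genes lay apart and higher and 0.217% apart and lower), the highest value of both groups being that of replicate 6. Each of the 6 KO replicate numbers had less Npas4, Fosb, Egr1 and Nr4a1 with CCM than with vehicle. Deviations of same-numbered KO libraries correlated in this comparison (0.391 to 0.887), and those of libraries with different numbers had a median of 0.268. A fit that took the replicate number as a block called 3 genes lower, where 3.11% of all genes were called. These were Npas4 (log2 change -0.89, SE 0.179, edgeR adjusted p = 0.0218), Egr1 (-0.48, SE 0.101, adjusted p = 0.0265) and Nr4a1 (-0.40, SE 0.0796, adjusted p = 0.0204). Without replicate 6 and without the block, 0 of the 10 were called (1.01% of all genes), with Npas4 at -1.03 (SE 0.248, edgeR adjusted p = 0.0770) and means of 3.20 ± 0.889 CPM with vehicle and 1.58 ± 0.527 CPM with CCM (SD, n = 5).

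**Figure D3:**
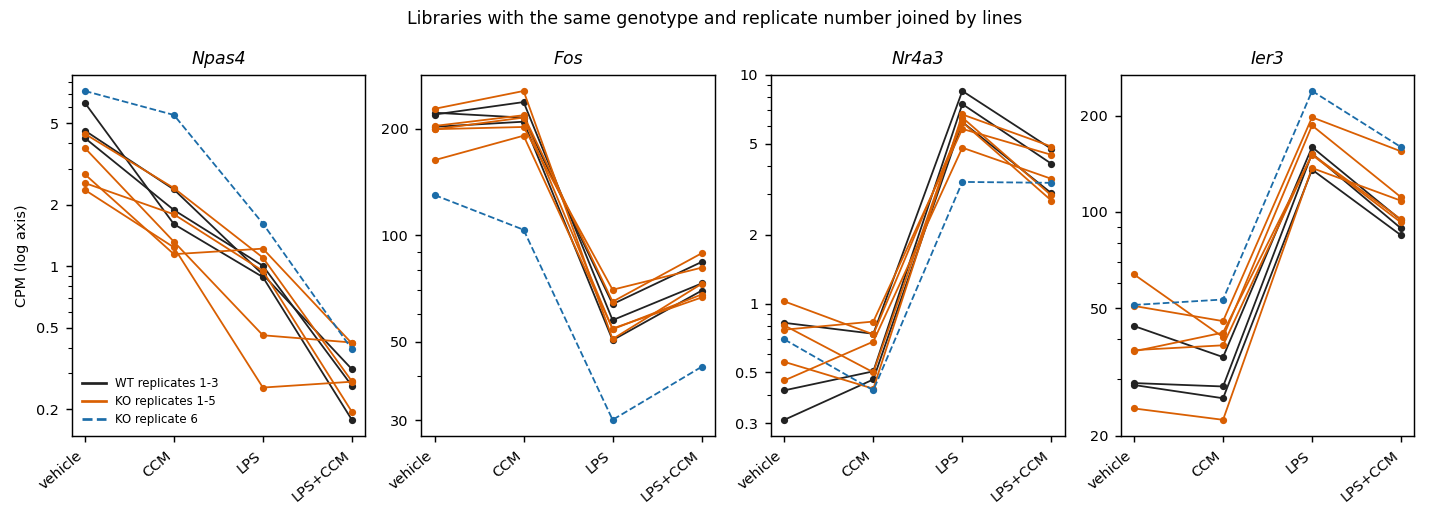
Levels (CPM, log axis) of Npas4, Fos, Nr4a3 and Ier3 through the 4 treatments, with a line joining libraries of the same genotype and replicate number, WT in black, KO replicates 1 to 5 in orange and KO replicate 6 dashed in blue. Npas4 of each line is lower with CCM than with vehicle, and Fos of each line is higher with LPS+CCM than with LPS.

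Under LPS, CCM was followed by changes in both directions in WT macrophages. Of the 9 genes tested against LPS alone, 1 was called higher (Fos) and 4 lower (Npas4, Egr1, Nr4a3 and Ier3), where 11.9% of 13579 genes were called, 4.15% higher and 7.78% lower. The median log2 fold change was -0.61 over these 9 genes and 0.01 over all genes. Fosb was removed by the filter, since 1 library of each group reached its minimum, and Npas4 passed through the LPS libraries, as 0 of the 3 LPS+CCM libraries reached it. Ranges did not overlap for 6 genes, Nr4a2 being the sixth, 1 apart and higher and 5 apart and lower, where 14.3% and 15.8% of all genes lay so. Dendritic cell markers summed to 2.04 to 2.49 CPM with LPS+CCM and 3.54 to 3.996 CPM with LPS, and B cell markers to 1.72 to 2.03 and 2.04 to 3.07 CPM, both without overlap. Those of neutrophils and their precursors were 288.9 to 352.5 and 351.6 to 384.7 CPM, overlapping as did the other 4 lists, and the part of these markers was not tested. A fit on all 36 libraries, in which the KO libraries add to the estimate of the spread, called 0 of the 10, with adjusted p of 0.394 or more.

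Ier3 measured 84.6, 88.9 and 94.3 CPM with LPS+CCM, all below the LPS libraries (136 to 160 CPM) and above the vehicle libraries (28.8 to 44.0 CPM). It fell by 0.73 on the log2 scale (SE 0.0660, edgeR adjusted p = 9.7e-05). Nr4a3 measured 4.09, 3.04 and 4.74 CPM with LPS+CCM against 6.21 to 8.49 CPM with LPS and fell by 0.89 (SE 0.197, edgeR adjusted p = 0.0153). The 2 genes called higher with LPS were thus both called lower with LPS+CCM, at 59.8% and 53.6% of their mean with LPS alone. The same LPS libraries served in both comparisons, so these results are not independent. The Nr4a3 call was lost without WT LPS replicate 3 (adjusted p = 0.0589) or WT LPS+CCM replicate 2 (adjusted p = 0.0618).

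Fos went the other way. It measured 69.8, 73.1 and 84.1 CPM with LPS+CCM, above each LPS library (50.6 to 63.9 CPM), and rose by 0.40 on the log2 scale (SE 0.0910, edgeR adjusted p = 0.0171), while staying below the vehicle libraries. The call was lost without WT LPS replicate 2, WT LPS+CCM replicate 2 or WT LPS+CCM replicate 3 (adjusted p up to 0.0654). Jun, the partner of FOS, was the 1 called higher among the 26 other immediate early genes tested (57.7 ± 3.52 to 80.4 ± 5.08 CPM, SD, n = 3; log2 fold change 0.49, edgeR adjusted p = 0.00093). The other called genes of that list, 9 in number, were lower, led by Gadd45b (166 ± 5.96 to 114 ± 2.49 CPM), Csrnp1, a nuclear protein of the immediate early class (39.8 ± 5.73 to 23.5 ± 1.94 CPM), and Ier2 (62.3 ± 8.58 to 42.4 ± 1.66 CPM). The median over the list was -0.21.

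Egr1, which LPS alone had left near its vehicle level, measured 9.0, 9.01 and 8.18 CPM with LPS+CCM against 15.5, 14.0 and 18.8 CPM with LPS. It fell by 0.88 (SE 0.126, edgeR adjusted p = 0.00146), and the call was kept when any 1 library was left out. Npas4 had 3, 6 and 5 counts with LPS+CCM (0.178, 0.314 and 0.261 CPM) and 15, 21 and 25 counts with LPS, a log2 change of -1.86 (SE 0.382, edgeR adjusted p = 0.0110). DESeq2 gave it no adjusted p. Egr2 (log2 change -0.11), Egr3 (-0.34), Nr4a1 (-0.61, edgeR adjusted p = 0.294) and Nr4a2 (-0.20) were not called. Same-numbered WT libraries deviated together here, and a block on replicate number also called Nr4a1 lower (log2 change -0.62, SE 0.119, edgeR adjusted p = 0.00091), where 23.7% of all genes were called, and 16 of the other immediate early genes were called in place of 10. Of the upstream and partner factors, 4 were called higher and 0 lower. They were the ternary complex factor genes Elk3 (47.6 ± 2.45 to 59.2 ± 0.828 CPM, SD, n = 3) and Elk1 (22.9 ± 0.740 to 27.4 ± 2.10 CPM), Rxra (72.0 ± 3.58 to 87.6 ± 2.42 CPM) and Arntl (9.19 ± 1.05 to 12.3 ± 0.720 CPM), the last named after its value was seen.

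In KO macrophages under LPS, 8 genes were tested and edgeR and DESeq2 called 0, where 0.112% of 13386 genes were called (0.00747% higher and 0.105% lower). At an unadjusted p under 0.05 there were 5. Those 5, Egr2, Nr4a1, Nr4a2, Nr4a3 and Ier3, all had negative log2 fold changes. Fos ran from 30.1 through 54.4 to 70.2 CPM with LPS and from 42.5 through 70.5 to 89.0 CPM with LPS+CCM (log2 change 0.34, SE 0.194, edgeR adjusted p = 0.730). Ier3 ran from 137 through 169 to 239 CPM and from 92.7 through 110 to 160 CPM (log2 change -0.59, SE 0.191, edgeR adjusted p = 0.354). Nr4a3 ran from 3.40 through 6.00 to 6.71 CPM and from 2.82 through 3.44 to 4.86 CPM (log2 change -0.63, SE 0.200, edgeR adjusted p = 0.345). The ranges overlapped for each of the 8 genes, and the log2 fold changes of Egr1, Egr2, Egr3, Nr4a1 and Nr4a2 lay between -0.64 and -0.39. Egr3 passed the filter through the LPS libraries, since 3 of the 6 LPS+CCM libraries reached the minimum. Without replicate 6, 0 were called as well (1.27% of all genes), with Nr4a3 at -0.70 (SE 0.182, edgeR adjusted p = 0.0905). KO LPS+CCM replicate 5, which had 155 CPM of Ier3, stayed in that fit. Leaving out any other 1 replicate number also called 0. Npas4 and Fosb were removed by the filter. Npas4 had 4 to 20 counts with LPS and 4 to 11 counts with LPS+CCM, or 0.935 ± 0.503 and 0.330 ± 0.0956 CPM (SD, n = 6). Of the other immediate early genes 1 was called, Csrnp1, which fell by 0.77 (edgeR adjusted p = 0.0431).

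Whether CCM acted differently with and without LPS was tested as an interaction, and 0 of the 10 genes were called in WT, where 2.09% of 14747 genes were called (0.468% with a positive and 1.62% with a negative interaction). At an unadjusted p under 0.05 there were 3, Fos (0.34, SE 0.122), Nr4a3 (-1.01, SE 0.458) and Ier3 (-0.57, SE 0.202), with edgeR adjusted p of 0.204, 0.339 and 0.192. DESeq2 called Ier3 alone (adjusted p = 0.0409), and so did edgeR without WT vehicle replicate 3 (adjusted p = 0.0127). For Npas4 the interaction was -0.52 (SE 0.406, edgeR adjusted p = 0.642), so a difference between its response to CCM at rest and under LPS was not shown. Of the other immediate early genes 1 was called, Plk3 (-0.48, edgeR adjusted p = 0.0192), which had 28.5 ± 0.958 CPM with CCM and 26.1 ± 0.568 CPM with vehicle but 26.9 ± 1.79 CPM with LPS+CCM and 34.0 ± 1.57 CPM with LPS (SD, n = 3). In KO 0 of the 10 genes were called for this interaction (0.00685% of 14588 genes), 0 at an unadjusted p under 0.05 and 0 by DESeq2.

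The genotypes themselves were compared with vehicle and with LPS, and in both 0 of the genes tested (10 and 9) were called by edgeR or by DESeq2, 0 had an unadjusted p under 0.05, and 0% of all genes were called. With vehicle, Npas4 was 3.86 ± 1.82 CPM in KO (SD, n = 6) and 5.05 ± 1.10 CPM in WT (n = 3), a log2 difference of -0.34 (SE 0.361). With LPS, the means were 0.935 CPM in both (standard error of the log2 difference 0.481), and without replicate 6 the log2 difference was -0.21 (SE 0.417). The largest differences in size were those of Nr4a3 and Ier3 with vehicle, at 0.48 (SE 0.378) and 0.42 (SE 0.294) higher in KO on the log2 scale. Nr4a3 passed the filter there through the KO libraries, since 1 of the 3 WT vehicle libraries reached the minimum.

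A change that depended on genotype was also not called for any of the 10 genes, by edgeR or DESeq2, for LPS (0% of 15093 genes), for CCM without LPS (0% of 14905 genes) or for CCM with LPS (0% of 14546 genes). At an unadjusted p under 0.05 there was 1 in the first, Nr4a3, whose rise with LPS was 0.85 smaller on the log2 scale in KO (interaction -0.85, SE 0.397, edgeR adjusted p = 1.0; -0.74, SE 0.376, without replicate 6), and 0 in the other two. For the CCM response the interaction of Npas4 was 0.55 (SE 0.676) without LPS and 0.37 (SE 0.661) with LPS, and that of Egr1 with LPS was 0.44 (SE 0.341). With standard errors of this size, calls made in WT and missed in KO are not shown to differ between the genotypes.

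Ordered by mean CPM, the Npas4 groups ran from WT vehicle (5.05) and KO vehicle (3.86) through KO CCM (2.24), WT CCM (1.96), KO LPS and WT LPS (0.935 each) to KO LPS+CCM (0.330) and WT LPS+CCM (0.251). Among neighbours in this order the ranges were apart only between WT LPS and KO LPS+CCM. For Nr4a3 they were apart only between KO LPS+CCM (3.67) and KO vehicle (0.718), and for Ier3 only between WT LPS+CCM (89.2) and KO vehicle (44.0), so each of these 2 genes split into groups with LPS and groups without. Fos split likewise between KO vehicle (187) and WT LPS+CCM (75.6).

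Over the 36 libraries, log2 CPM of Fos and Ier3 had a Pearson r of -0.93, Fos and Egr2 of 0.88, and Nr4a3 and Ier3 of 0.91, all of which hold the contrast between libraries with and without LPS. Npas4 had an r of 0.84 with Egr2, 0.80 with Nr4a1 and 0.65 with Fos. Among 12570 genes with a mean of at least 1 CPM, the 5 most like Npas4 were Spint1 (r = 0.92), which encodes a membrane protease inhibitor, Anapc15 (0.89), a subunit of the anaphase-promoting complex, Mcm6 (0.89), of the replicative helicase, Parvg (0.89), an adhesion adaptor, and Rasal1 (0.88), a RAS GTPase-activating protein. Spint1 went from 21.2 ± 4.41 CPM with vehicle through 11.3 ± 2.37 with CCM and 7.39 ± 1.25 with LPS to 2.85 ± 0.806 with LPS+CCM in WT (SD, n = 3), the same order of means as Npas4. These points share libraries and treatments and are a description.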

How the data were processed

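Polyadenylated RNA of 36 BMDM libraries was sequenced from both ends. Per the labels and the study's methods, the authors used fastp for trimming, HISAT2 2.0.5 for alignment to mm10 and featureCounts 1.5.0-p3 for counting. The deposited values are raw counts for 54532 genes, not normalized, and 0 sample columns were left out. The strand setting is not given in the sources used here, but 0 of the annotated genes overlap any of the 10 members. CPM values were computed here.

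Only the libraries of the compared groups entered each fit, made with edgeR 4.0.16 in R 4.3.3 (filterByExpr, TMM, quasi-likelihood test, no block, Benjamini-Hochberg over all genes tested, threshold 0.05). Levels are CPM with TMM factors over all libraries, and log2 CPM used a prior count of 2. DESeq2 1.42.0, RLE size factors, total counts, no filter beyond 1 count, all 36 libraries, the replicate number as a block and leaving out each library (WT) or replicate number (KO) were the alternatives. The scripts were checked on simulated data. Replicates of a group differed by more than counting noise (chi-square per degree of freedom 4.34 or more). Npas4, Fosb and Nr4a3 were thinly counted, with minima of 3, 0 and 6 counts in a library.

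Whether same-numbered libraries belong together is not stated in the labels, so it was judged by whether their departures from their groups' means correlated. Each pair exceeded 0.1 for LPS in KO (0.316 to 0.868), CCM in KO (0.391 to 0.887) and LPS+CCM against LPS in WT (0.165 to 0.380). Libraries with different numbers had medians of 0.214, 0.268 and -0.153 in these comparisons. In KO these medians also exceed 0.1, so passing it does not show that same-numbered libraries belong together. The main fits had no block in any comparison, and fits with the block are given as alternatives. The members, the lists of 27 other immediate early genes and 16 upstream and partner factors, and the marker lists were chosen with earlier results of these data known. The members are named in each comparison, list genes are named up to 3 per direction by adjusted p, and genes like Npas4 are the 5 with the highest correlation. Promoter sequences come from RefSeq, on GRCm38.p6.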

Additional observations from a re-analysis of the deposited data

Results flagged for a closer look

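In each KO group of 6 libraries, the highest or lowest library of each gene was compared with the rest by Dixon's ratio on log2 CPM. Of 40 such groups 2 exceeded the 95% critical value for 6 samples, and chance gives about 1 in 20. Fos in KO CCM replicate 6 was 104 CPM, where the other 5 libraries had 191 to 256 CPM (ratio 0.678). Nr4a2 in KO LPS+CCM replicate 6 was 1.40 CPM, where the others had 3.17 to 4.77 CPM (ratio 0.662). Both libraries belong to KO replicate 6. In each treatment it had the lowest summed macrophage markers and the highest summed neutrophil and precursor markers of the KO libraries. Single markers differed in direction, with Cd68 at 1013 to 1427 CPM in KO replicate 6 and 587 to 1248 CPM in the other libraries. Ly6g was at no more than 0.562 CPM in any library. The part of these markers in the 2 values was not tested.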

How the results depend on the processing

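The genes called for LPS against vehicle kept their direction under each alternative fit. Leaving out 1 library or replicate number gave 7 to 8 called genes for LPS in WT, 6 to 8 for LPS in KO, 3 to 5 for LPS+CCM against LPS in WT and 0 to 1 for the interaction of LPS and CCM in WT, and 0 in the other 9 comparisons. For CCM in WT, where 0 were called, DESeq2 and the fit without a filter each called 1 gene (Npas4), and the replicate block called 3 (Npas4, Egr1 and Egr3, with 1.82% of all genes called), although not all same-numbered WT libraries deviated together there (0.0541 to 0.508). The replicate block called 3 genes for CCM in KO, and 3 for LPS+CCM against LPS in KO (Fos, Nr4a1 and Ier3, with 5.8% of all genes called), where pair correlations ran from -0.111 to 0.839. For LPS in WT they ran from 0.0914 to 0.223 and the block called 8 genes, Nr4a1 (adjusted p = 0.0026) beside the 7. For LPS+CCM against LPS in WT the fit on all 36 libraries called 0 of the 5. For the interaction of LPS and CCM in WT, DESeq2 called 1, no filter 2 and the block 2. No paired analysis was possible for KO against WT because the genotypes came from different mice. The cause of these changes was not tested.

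No called gene changed sign. Among those not called, signs changed for LPS in WT in Egr1 (0.0098 with DESeq2, 0.01 with RLE size factors, 0.034 with the block) and Nr4a2 (-0.24 with total counts), and for LPS in KO in Nr4a2 (-0.30 with total counts). Npas4 for KO against WT with LPS became -0.039 with total counts and -0.0083 with no filter. In the interaction of LPS and CCM in WT, Fosb became 0.083 with total counts and 0.0054 with no filter, and Egr2 -0.015 with DESeq2 and -0.016 with RLE. In that of genotype and LPS, Egr1 became 0.011 with total counts and 0.017 with no filter, and Nr4a1 -0.015 with DESeq2 and -0.014 with RLE. In that of genotype and CCM, Fos without LPS became -0.0094 with the block and Nr4a1 with LPS -0.025 with total counts. Leaving out 1 library or replicate number changed the sign of the log2 value for LPS against vehicle in WT, Egr1 (-0.26 to 0.41) and Nr4a2 (-0.0064 to 0.39). For LPS against vehicle in KO the same held for Egr1 (-0.093 to 0.0017). For CCM against vehicle in WT the same held for Fos (-0.0024 to 0.091), Nr4a2 (-0.25 to 0.17), Nr4a3 (-0.13 to 0.66) and Ier3 (-0.32 to 0.063). For CCM against vehicle in KO the same held for Ier3 (-0.19 to 0.0033). For KO against WT with vehicle the same held for Fosb (-0.18 to 0.41), Egr1 (-0.29 to 0.37), Nr4a1 (-0.21 to 0.0008) and Nr4a2 (-0.28 to 0.11). For KO against WT with LPS the same held for Npas4 (-0.21 to 0.21), Fos (-0.15 to 0.050), Egr1 (-0.22 to 0.052), Egr2 (-0.086 to 0.0052), Egr3 (-0.26 to 0.22) and Nr4a1 (-0.30 to 0.31). For LPS by CCM in WT the same held for Fosb (-0.56 to 0.28), Egr2 (-0.11 to 0.064), Nr4a1 (-0.79 to 0.089) and Nr4a2 (-0.38 to 0.027). For LPS by CCM in KO the same held for Fosb (-0.084 to 0.49), Egr1 (-0.037 to 0.092) and Egr3 (-0.45 to 0.18). For genotype by LPS the same held for Egr1 (-0.28 to 0.21), Egr3 (-0.075 to 0.61), Nr4a1 (-0.14 to 0.34) and Nr4a2 (-0.29 to 0.11). For genotype by CCM without LPS the same held for Fos (-0.034 to 0.058), Egr1 (-0.13 to 0.23), Egr2 (-0.079 to 0.032) and Ier3 (-0.060 to 0.17). For genotype by CCM with LPS the same held for Fosb (-0.54 to 0.48), Egr3 (-0.81 to 0.071) and Nr4a1 (-0.084 to 0.11).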
